A study of Bos indicus with 12 samples.

Results

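RAB GTPases are small membrane proteins that direct vesicle traffic, and their mRNA was examined here in the corpus luteum (CL) of cows on day 18, with a pregnancy (P) or without one (NP). The members are the genes of the deposited table whose symbol is RAB followed by a number and at most 1 letter. This gave 50 genes of the 15178 rows, after RAB21, the only symbol with several rows, was kept at its row with the highest mean. All 50 symbols occur in RefSeq, where a further 9 RAB symbols are found that are not analysed here, RAB4B and RAB25 among them. The cows were non-lactating, multiparous Bos indicus, synchronized for fixed-time insemination. P cows (n = 6) were inseminated and were classed as pregnant by an embryo in the uterine flush, interferon-stimulated genes and progesterone, and NP cows (n = 6) were synchronized but not inseminated. All CL were taken at slaughter on day 18, and each cow gave 1 poly-A library of whole CL tissue.

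A RAB protein cycles between a GDP-bound form, held in the cytosol by GDI proteins, and a GTP-bound form that sits in a membrane by its prenyl tail. Exchange factors load GTP, GTPase activating proteins end the active state, and effectors bound to the GTP form tether, move or fuse vesicles. Each RAB has its own compartments, so the set of RABs present marks the routes a cell runs. Luteal cells take up lipoprotein cholesterol through endosomes and lysosomes, store cholesterol esters in lipid droplets and, in the large luteal cells of ruminants, release oxytocin from secretory granules. The roles given below are known from human, mouse and yeast cells, not from the bovine CL.

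Values are normalized counts, that is reads per gene divided by the size factor of the library. They are not divided by gene length, so levels are compared between cows and never between genes. The reads recovered behind these values came to 6148184 to 8253360 per NP library and 2038858 to 7534503 per P library. The 3 libraries with the fewest reads were those of P cows 01, 18 and 28. Of 8 luteal markers tested, STAR, CYP11A1 and HSD3B1 of progesterone synthesis among them, 1 (PTGFR, the prostaglandin F2A receptor) was lower and 0 were higher in P cows, and their summed level was 165760 to 294130 in NP and 201840 to 288590 in P cows. Among markers of other cells, 1 of 10 endothelial markers was higher and 2 were lower (summed level 7283 to 11898 in NP and 6263 to 13734 in P cows), 3 of 9 pericyte and smooth muscle markers were higher and 2 lower (5738 to 14457 and 6342 to 15708), 1 of 7 fibroblast markers was higher and 1 lower (33281 to 81824 and 31027 to 73544), and 4 of 17 leukocyte markers (CD3E, CD8A, CORO1A and NKG7) were higher and 0 lower (1345 to 4343 and 1842 to 4253). No follicle, theca or epithelial marker was called, but the summed level of the follicle and theca markers reached further up in P cows (188 to 498 in NP and 285 to 1448 in P cows). Epithelial markers summed to 50.9 to 103 in NP and 69.9 to 173 in P cows. HBB, the only red cell marker tested, was higher. Over all genes tested, 26.8% were called, 14.8% lower and 12% higher. The called share was 12.5% of luteal, 30% of endothelial, 55.6% of pericyte and smooth muscle, 28.6% of fibroblast and 23.5% of leukocyte markers. Of the 10 endothelial markers, 3 leaned higher and 7 lower. Those called lower were PECAM1 (mean 375.8 in NP and 71.51 in P cows) and CDH5 (1007 and 454), both without overlap between groups. EGFL7 was the endothelial marker called higher (1419 and 3345), with overlap. The summed endothelial level gives the largest weight to EGFL7 and KDR (2609 and 2997, not called), so it does not show these falls. Of the 17 leukocyte markers, 9 leaned higher and 8 lower. What part these differences had in the RAB values was not tested. In whole tissue, fewer cells of a type and less RNA per cell cannot be told apart.

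In the CL of P cows, the mRNA of 6 of the 45 RABs tested was lower, beside 14.8% of all genes tested. These were RAB43, RAB1B, RAB18 and RAB1A of the endoplasmic reticulum (ER) and Golgi, RAB7A alone of the late endosome, and the ciliary RAB28. A single RAB, RAB13 of the tight junction route, was higher, beside 12% of all genes tested. These 7 genes passed a limma test on log2(value + 1) at an adjusted p below 0.05 over all genes tested, with a log2 fold change of 0.58 or more in either direction, the thresholds of the study. In all 7, none of the 6 P cows overlapped the 6 NP cows, as in 13.6% of all genes tested. The 7 genes were picked by this same contrast, so the lack of overlap only describes them.

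Only genes that reached 30 normalized counts in some cow were tested, and 45 of the 50 RABs did. The remaining 5 were RAB6B, RAB19, RAB27B, RAB38 and RAB40B, with 0 to 27 reads in a cow. Of the 45 tested, 6 (lower) and 1 (higher) were called, 15.6% in all, whereas 26.8% of the 11907 genes tested were called, with 14.8% lower and 12% higher. The share of RABs called was below that of all genes, and the difference between the shares was not tested. Groups did not overlap in 10 RABs (8 lower, 2 higher), or 22.2%, against 13.6% of all genes tested (7.41% lower, 6.21% higher). The median log2 fold change was -0.18 over the 45 RABs and -0.01 over all genes tested, and 29 of the 45 leaned lower.

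**Figure D1:**
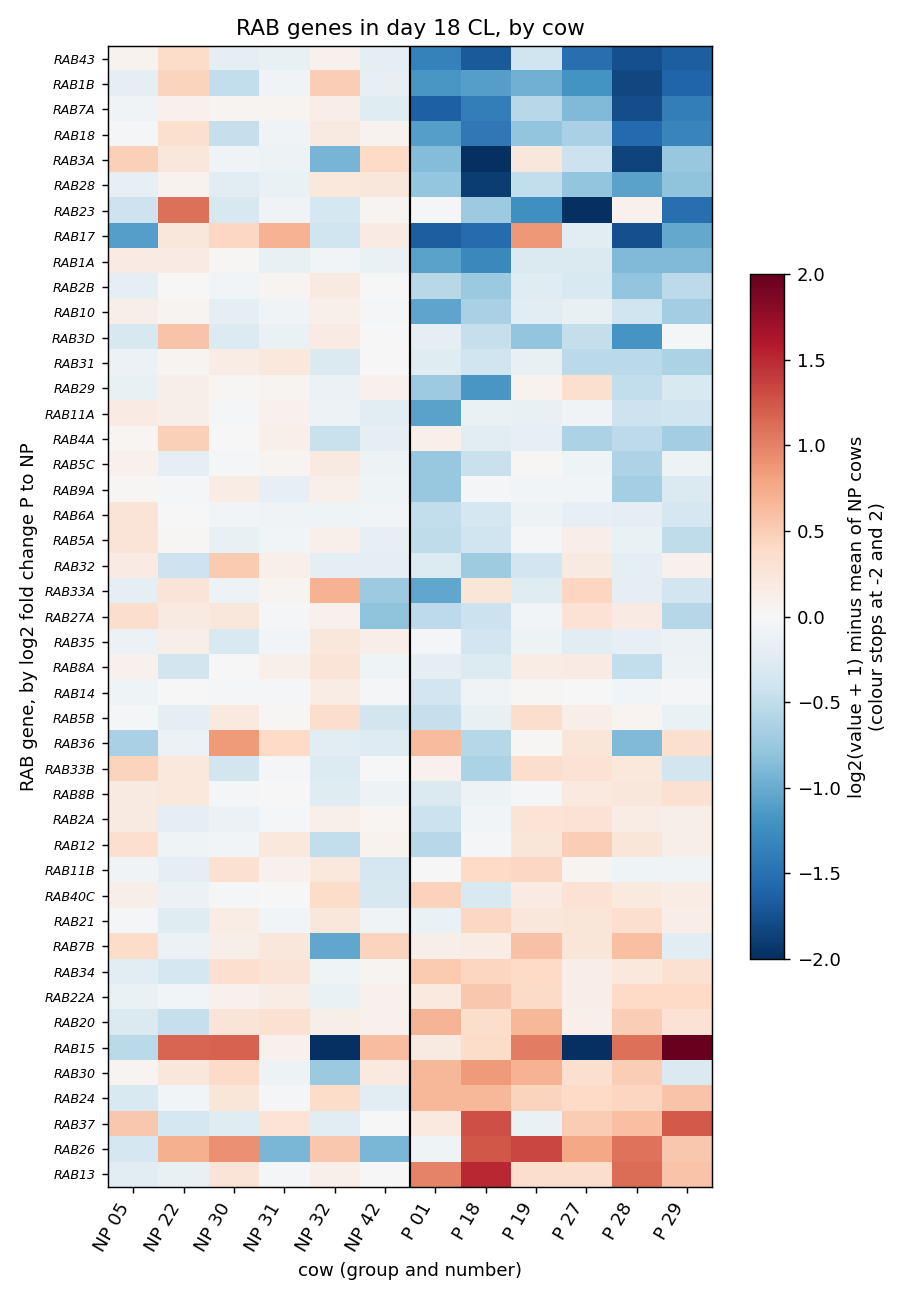
Heat map of the 45 RAB genes tested (rows, from the lowest to the highest log2 fold change) in the 12 cows (columns, NP left and P right). Colour is log2(value + 1) of a cow minus the mean of the 6 NP cows, and it stops at -2 and 2. The upper rows, from RAB43 to RAB18, are blue in every P cow, palest in cow 19 or, for RAB18, in cow 27, and the bottom row, RAB13, is red in every P cow, while most rows between them stay near white.

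Of 12 RABs of the ER and Golgi route tested, the largest group by role, 4 fell (33.3%) and 0 rose, beside 14.8% lower and 12% higher among all genes. The difference between these shares was not tested in so small a group. RAB18, which also acts at lipid droplets, is counted among the 4. RAB1A and RAB1B are close relatives that drive vesicles from the ER to the Golgi. RAB1B (ENSBTAG00000046485) had 225 to 446 normalized counts in NP cows (median 293) and 88.9 to 163 in P cows (median 140.1). Even the lowest NP cow, number 30, was above every P cow. The mean fell from 327.9 ± 89.9 to 130.8 ± 28.2 (SD, n = 6 cows per group), a log2 fold change of -1.31 (SE 0.20, adjusted p = 0.00093).

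RAB1A (ENSBTAG00000016720) had 911 to 1138 normalized counts in NP cows (median 1003) and 413 to 829 in P cows (median 550.4). P cows 19 (826) and 27 (829) lay just under the NP range and the other 4 well below it. The log2 fold change was -0.78 (SE 0.17, adjusted p = 0.00357). Without P cows 01, 18 and 28 it was -0.49 and no longer passed (adjusted p = 0.0547).

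RAB18 helps to tether lipid droplets to the ER and moves on and off their surface. It (ENSBTAG00000009871) had 299 to 516 normalized counts in NP cows (median 414) and 139 to 263 in P cows (median 177). The P cows closest to the NP range were again 27 (263) and 19 (236). The log2 fold change was -1.14 (SE 0.18, adjusted p = 0.000961).

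RAB43 is a Golgi RAB that acts in the sorting of membrane receptors on their way out of the ER. It (ENSBTAG00000053386) showed the largest fall of the 45 RABs, with 117 to 174 normalized counts in NP cows (median 131) and 39.2 to 102.1 in P cows (median 44.3). P cow 19 alone reached 102.1, and the other 5 P cows had at most 52.1. The log2 fold change was -1.39 (SE 0.22, adjusted p = 0.00113), on 15 to 275 reads per cow.

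Other Golgi RABs moved less. RAB2B lay lower in all 6 P cows than in the NP cows (141 to 206 against 218 to 277 normalized counts), but with a log2 fold change of -0.53 (adjusted p = 0.00693) it did not reach the fold minimum. RAB6A, which carries vesicles back from the Golgi to the ER, also did not overlap between groups (642 to 844 in P and 854.5 to 1089 in NP cows), with a log2 fold change of -0.27 that did not pass (adjusted p = 0.0656). RAB2A had a log2 fold change of 0.05 with a 95% interval of -0.23 to 0.34. RAB34 had 0.33 (adjusted p = 0.0652), and RAB30, RAB33A, RAB33B and RAB36 did not pass, with intervals that all held 0.

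Of 7 RABs of the late endosome, lysosome and autophagosome tested, 1 fell (14.3%), near the 14.8% of all genes. This was RAB7A, which brings late endosomes and autophagosomes to fusion with lysosomes. RAB7A (ENSBTAG00000010193) had 1161 to 1510.5 normalized counts in NP cows (median 1425) and 399.95 to 934 in P cows (median 528). The values in P cows were 441, 528, 934, 741, 399.95 and 528 in cows 01, 18, 19, 27, 28 and 29. Cows 19 and 27 were nearest to the NP cows, and cow 28 was the lowest. The mean fell from 1379.8 ± 127 to 595 ± 203, a log2 fold change of -1.27 (SE 0.18, adjusted p = 0.000834), on 153 to 2292 reads per cow. With the library total in the model it was -0.88 (adjusted p = 0.0197).

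No other RAB of this compartment fell. RAB9A, which returns receptors from late endosomes to the Golgi, had a log2 fold change of -0.31 (adjusted p = 0.122), and RAB29, RAB32, RAB12 and RAB7B did not pass either. RAB24, which acts in autophagy, had 317 to 382 normalized counts in P cows, all above the 195 to 312 of the NP cows. Its log2 fold change of 0.53 (adjusted p = 0.00825) stayed under the fold minimum.

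Early endosome RABs had 0 of 8 genes called, beside 26.8% of all genes, a difference that was not tested in so small a group. RAB5A, RAB5B and RAB5C, which control fusion of early endosomes after uptake at the cell surface, had log2 fold changes of -0.24, -0.04 and -0.33 (adjusted p = 0.176, 0.869 and 0.0865). RAB5B had 1782 to 2930 normalized counts in NP and 1661 to 2925 in P cows, nearly the same range, with a 95% interval of the log2 fold change of -0.37 to 0.29. RAB31 and RAB22A, a closely related pair of the early endosome and trans-Golgi, leaned in opposite directions with an adjusted p below 0.05, and both were under the fold minimum (-0.41, adjusted p = 0.0186, and 0.34, adjusted p = 0.0285). RAB21, which carries integrins, and RAB20, of the phagosome, had log2 fold changes of 0.20 and 0.43 that did not pass (adjusted p = 0.231 and 0.154). RAB17, an epithelial RAB, had 4 to 96 reads and varied widely within each group (17.1 to 62.15 in NP and 10.5 to 70.04 in P cows).

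Recycling RABs had 0 of 6 called as well, again a small group beside 26.8% of all genes. RAB11A, which returns cargo to the plasma membrane, had 612 to 799 normalized counts in NP and 339 to 678 in P cows (log2 fold change -0.38, adjusted p = 0.0747). RAB14 had a log2 fold change of -0.08 with a 95% interval of -0.31 to 0.14, and RAB35 had -0.17 (-0.42 to 0.09). RAB4A, of fast recycling, had -0.36 (adjusted p = 0.183) and RAB11B had 0.12 (adjusted p = 0.514). RAB15 ranged from 5 to 178 reads over the cows, and its 95% interval ran from -1.06 to 1.95.

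Among 9 RABs of exocytosis and polarised secretion, RAB13 was the gene that rose (11.1%), near the 12% higher among all genes. RAB13 acts in the delivery of junction proteins to the membrane of epithelial and endothelial cells. It (ENSBTAG00000017604) had 449 to 622 normalized counts in NP cows (median 515) and 658 to 1476 in P cows (median 896.5). The P values were 1026, 1476 and 1129 in cows 01, 18 and 28, and 658, 661 and 767 in cows 19, 27 and 29. All 6 exceeded the highest NP cow, but the rise was far larger in the 3 libraries with the fewest reads. The log2 fold change was 0.81 (SE 0.19, adjusted p = 0.00502), and 0.42 without those 3 cows (adjusted p = 0.0533), which did not pass.

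Granule RABs did not pass in either direction. RAB27A, which docks secretory granules and exosome-bearing bodies at the plasma membrane, had 424 to 948 normalized counts in NP and 502 to 907 in P cows (log2 fold change -0.18, 95% interval -0.62 to 0.25). RAB3D, of dense-core granules, had a log2 fold change of -0.52 (adjusted p = 0.0596), and RAB3A, with 1 to 40 reads, one of -1.09 (adjusted p = 0.0868). RAB26 (0.81, adjusted p = 0.0784) and RAB37 (0.62, adjusted p = 0.101), which also act at granules, leaned higher. RAB10, which serves insertion of transporters into the plasma membrane, was below every NP cow in 5 P cows, with a log2 fold change of -0.53 (adjusted p = 0.0137) under the fold minimum. RAB8A and RAB8B had -0.12 and 0.05, with intervals of -0.42 to 0.18 and -0.23 to 0.33.

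RAB28, a prenylated RAB of the primary cilium and of photoreceptors, fell. It (ENSBTAG00000003218) had 214 to 291 normalized counts in NP cows (median 244) and 65.8 to 175 in P cows (median 143). Cow 18 was the lowest and cow 19 the highest of the P cows. The log2 fold change was -0.97 (SE 0.20, adjusted p = 0.00317), and -0.67 with the library total in the model, which did not pass (adjusted p = 0.0913). RAB23, which restrains hedgehog signalling in mouse embryos, had 25.7 to 75.5 in NP and 7.92 to 36.6 in P cows, with a log2 fold change of -0.90 that did not pass (adjusted p = 0.0836). RAB23 was lower and passed without P cows 01, 18 and 28 (-1.58, adjusted p = 0.0219), since cows 01 (34.2) and 28 (36.6) had the highest values of the P cows. RAB40C, which joins a ubiquitin ligase, had a log2 fold change of 0.16 (adjusted p = 0.424).

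**Figure D2:**
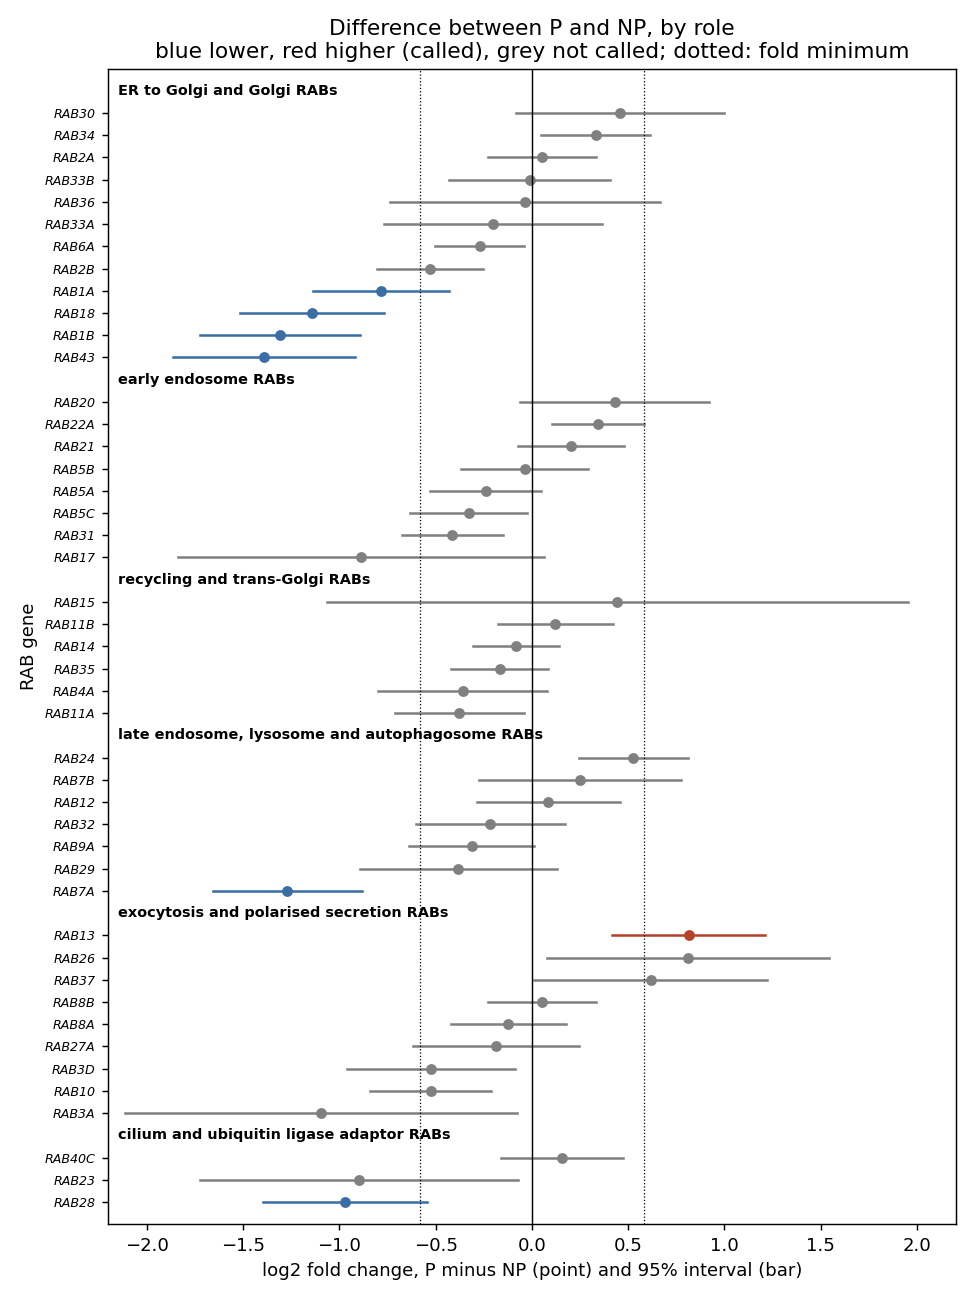
Log2 fold change of each RAB gene tested (point, P minus NP, 6 cows per group) with its 95% interval from limma (bar), grouped by role. Blue genes were lower and the red gene higher in P cows, grey genes were not called, and dotted lines mark the fold minimum of 0.58. The 6 blue points lie between -1.39 and -0.78, RAB13 at 0.81, and 13 of the 38 grey bars lie wholly between the dotted lines.

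For 13 of the 38 RABs not called, the 95% interval of the log2 fold change lay within 0.58 on either side of 0, and for the other 25 it reached further. Of the 38, 5 had an adjusted p below 0.05 with a smaller fold (RAB10, RAB22A, RAB24, RAB2B and RAB31).

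The P cows did not differ from the NP cows to the same degree. Averaged over the 6 genes that fell, log2(value + 1) lay 0.58 below the NP mean in cow 19 and 0.88 below it in cow 27 at the near end. The far end was formed by cows 01 (1.18 below), 29 (1.27 below), 18 (1.46 below) and 28 (1.48 below), while single NP cows lay between 0.21 below and 0.24 above their own mean. These genes were chosen by this contrast, so the values only describe the cows. Cows 01, 18 and 28 had the fewest reads, and cow 29 had 6481120. The part of read depth in these averages per cow was not tested. A fit of each gene with the library total in the model is given below, and RAB28, RAB1A and RAB13 did not pass in it. The normalized counts summed over all 50 RABs were 19423 to 22714 in NP and 16234 to 22106 in P cows, ranges that overlap.

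Without P cows 01, 18 and 28, RAB1B (-1.25, adjusted p = 0.0109), RAB43 (-1.19, adjusted p = 0.0178), RAB7A (-0.94, adjusted p = 0.0109), RAB18 (-0.92, adjusted p = 0.0166) and RAB28 (-0.70, adjusted p = 0.0175) still passed, and 12.2% of all genes were then called (8.04% lower, 4.2% higher). With the lower RAB23, 6 of 45 RABs were lower in that comparison and 0 were higher. When the library total (log2) was added to the model, RAB1B, RAB43, RAB7A and RAB18 passed and RAB28 (-0.67), RAB1A (-0.49) and RAB13 (0.39) did not (adjusted p = 0.0913, 0.104 and 0.143), with 4.28% of all genes called (2.75% lower, 1.53% higher). All 7 passed with edgeR (26.8% of all genes called, 14.6% lower and 12.2% higher), with DESeq2 (29.3%, 15.3% lower and 14% higher) and with 1 surrogate variable (20.6%, 11.4% lower and 9.12% higher).

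**Figure D3:**
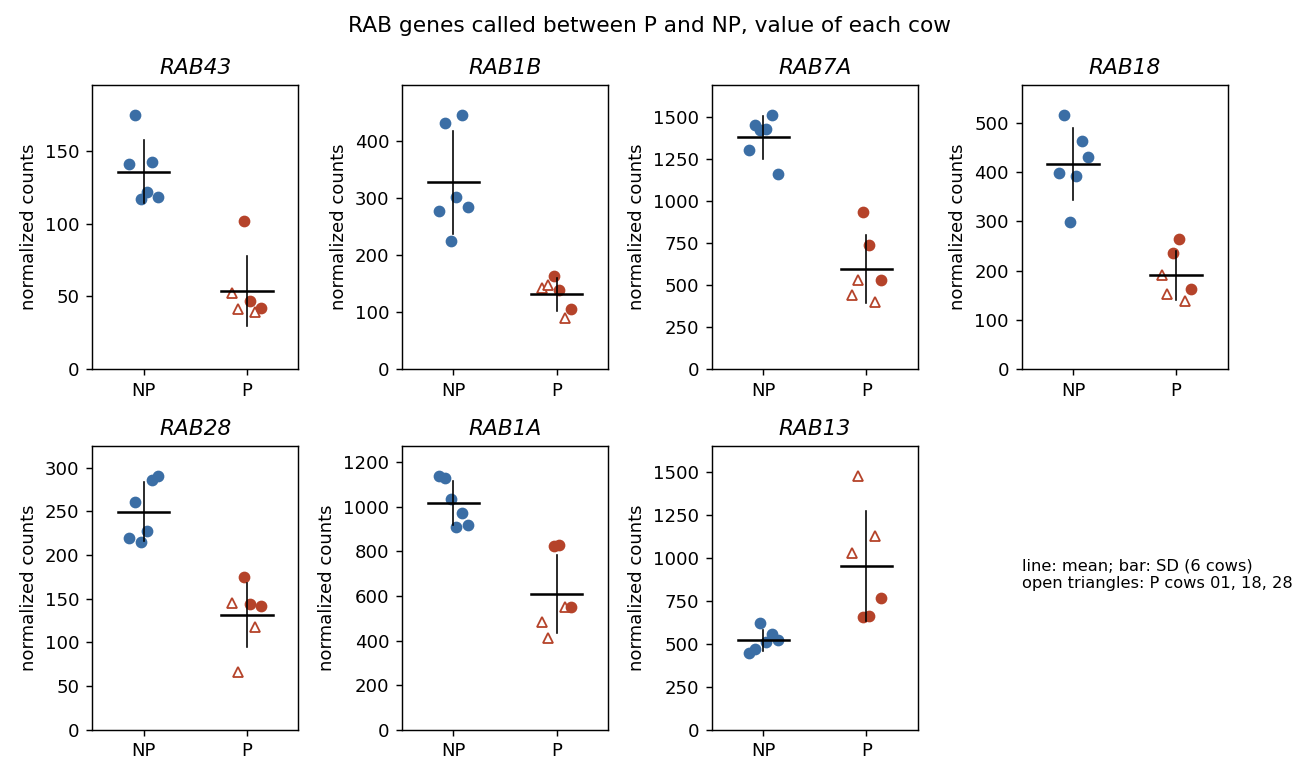
Normalized counts of the 7 RAB genes called, 1 point per cow, with the mean (line) and SD (bar) of 6 cows; each axis starts at 0. Open triangles are P cows 01, 18 and 28, the libraries with the fewest reads. In every panel the P points lie apart from the NP points, and for RAB13 the triangles, at 1026 to 1476, lie far above the filled P points at 658 to 767.

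Some closely related RABs were not shifted alike, as seen in their ratio. The log2 ratio of the members of a pair was taken within each cow and compared between groups by an exact permutation test over 924 splits (two-sided, smallest p 0.00217), with p adjusted over the 11 pairs in which both genes were tested. In 4 pairs the ratio differed. RAB7A to RAB7B, the latter a lysosomal RAB of immune cells, was lower in all 6 P cows than in the 6 NP cows (difference of the log2 ratio, P minus NP, -1.52, exact permutation adjusted p = 0.0119). RAB7B itself had 31 to 88.6 normalized counts in NP and 56.01 to 99.3 in P cows (medians 73.2 and 74.6), so the ranges largely overlapped while RAB7A fell.

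RAB22A to RAB31 was higher in all 6 P cows than in the 6 NP cows (difference 0.76, exact permutation adjusted p = 0.0119). RAB22A had 244 to 296 normalized counts in NP cows (median 270.1) and 294 to 387 in P cows (median 351). RAB31 had 461 to 651 in NP cows (median 574) and 365 to 509.6 in P cows (median 409).

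RAB2A to RAB2B, both of ER and Golgi transport, was higher in P cows (difference 0.58, exact permutation adjusted p = 0.0159), and 5 of 6 P cows were above every NP cow. RAB2A had 893 to 1152 normalized counts in NP cows (median 1019) and 754 to 1241 in P cows (median 1111), so it was RAB2B (medians 245 and 168) that lay lower.

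RAB11A to RAB11B was lower in P cows (difference -0.50, exact permutation adjusted p = 0.0357), with 4 of 6 P cows below every NP cow. RAB11B had 1217 to 1881 normalized counts in NP cows (median 1538) and 1443 to 2039.98 in P cows (median 1567). Leaving out a single cow ended this call for 4 NP cows (05, 22, 31, 42) and 3 P cows (01, 18, 19), with an exact permutation adjusted p of 0.0524 to 0.0714.

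RAB1A and RAB1B both fell, and their ratio was not shown to differ (difference 0.52, exact permutation adjusted p = 0.127). RAB5B to RAB5C came close (0.29, exact permutation adjusted p = 0.0571), and the other 5 pairs had an exact permutation adjusted p of 0.225 to 0.638. The differences without P cows 01, 18 and 28 were -1.15 for RAB7A to RAB7B, 0.75 for RAB22A to RAB31, 0.58 for RAB2A to RAB2B and -0.35 for RAB11A to RAB11B, and 0 pairs passed (exact permutation adjusted p = 0.0982, 0.0655, 0.0655 and 0.209). The smallest unadjusted p that 3 against 6 cows allow is 0.0119, so this test could hardly pass over 11 pairs.

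**Figure D4:**
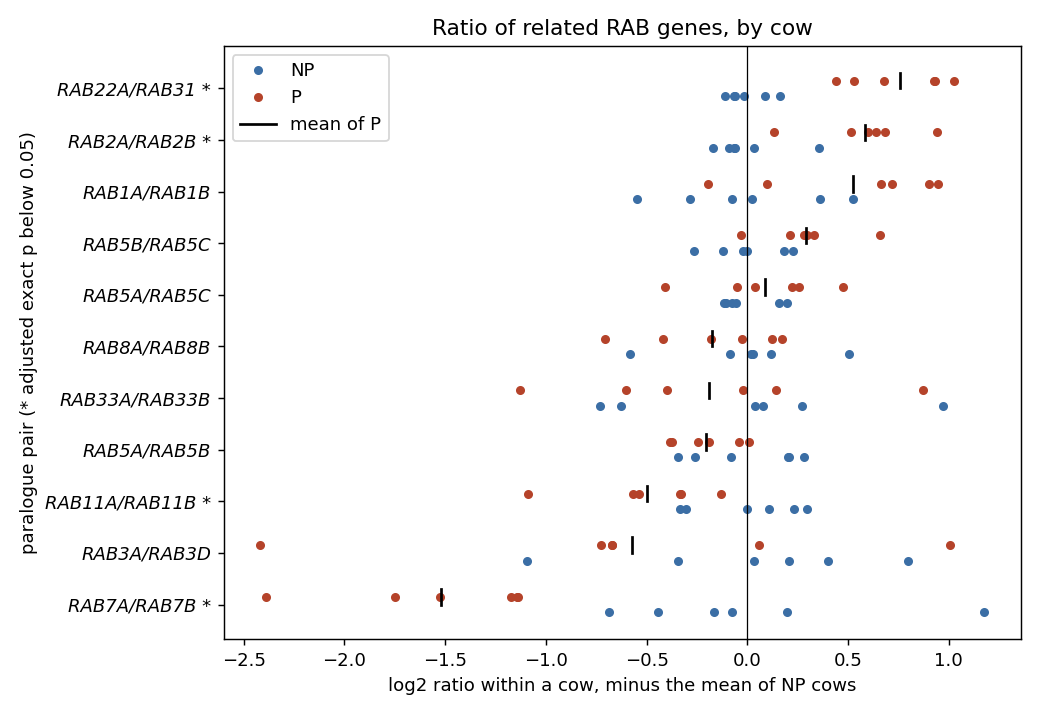
Log2 ratio of the normalized counts of the genes of 11 related pairs within each cow, shifted so that the mean of the 6 NP cows is 0 (horizontal axis), with NP cows in blue, P cows in red and the mean of P cows as a black line. Stars mark an adjusted exact p below 0.05. The P cows of RAB7A/RAB7B lie left of and those of RAB22A/RAB31 right of all NP cows of the same pair.

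The proteins that load, place and read RABs were counted from lists of their genes. Of 10 genes of prenylation and membrane delivery tested, 1 rose and 2 fell, 30% in all, near the 26.8% of all genes. RABGGTB, a subunit of the transferase that adds the prenyl tails, rose from 161 ± 11.8 to 262 ± 61.4 normalized counts (log2 fold change 0.67, adjusted p = 0.00454). YIPF6, a Golgi membrane protein of the YIP family, fell from 147.5 ± 37.4 to 58.99 ± 17.3 (-1.32, adjusted p = 0.00121), and RABAC1, a receptor for prenylated RABs, from 1462 ± 218 to 872 ± 366 (-0.84, adjusted p = 0.0127). RABAC1 lost its call without P cows 01, 18 and 28 (-0.35, adjusted p = 0.196). RABGGTB also fell short there (0.53, adjusted p = 0.0302), under the fold minimum. GDI2, which holds RABs in the cytosol, did not pass (-0.35, adjusted p = 0.056).

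Of 48 exchange factor genes 8 rose and 11 fell, 39.6% in all, beside 26.8% of all genes. DENND5A, an exchange factor of RAB6 and RAB39, fell from 380.4 ± 69.03 to 207.6 ± 32.4 normalized counts (log2 fold change -0.87, adjusted p = 0.00138), DENND6A, of RAB14, from 53.8 ± 22.2 to 18.1 ± 3.79 (-1.45, adjusted p = 0.00212) and RAB3GAP2 from 200.7 ± 34.6 to 113.7 ± 23.2 (-0.82, adjusted p = 0.00253). DENND1C, which acts on RAB13 and RAB35, rose from 59.8 ± 20.3 to 175 ± 95.03 (1.46, adjusted p = 0.0034). Leaving out the 3 cows with the fewest reads left 2 of 48 that rose and 5 that fell, all 4 of these among them. In that comparison 12.2% of all genes were called (4.2% higher, 8.04% lower), so the larger share of exchange factors was not clearly kept.

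Of 35 GTPase activating protein genes 2 rose and 8 fell, 28.6% in all, near the 26.8% of all genes. RABGAP1 fell from 248.9 ± 69.5 to 100.7 ± 21.6 (log2 fold change -1.28, adjusted p = 0.000961) and TBC1D15 from 169 ± 37.7 to 72.98 ± 17.4 (-1.21, adjusted p = 0.000981). SGSM2 rose (0.84, adjusted p = 0.00191), and RAB3GAP1 fell from 462 ± 77.2 to 275 ± 60.5 (-0.76, adjusted p = 0.00412). Without the 3 cows 1 of the 35 rose and 7 fell, beside 4.2% higher and 8.04% lower among all genes, 12.2% in all. The share called was then above that of all genes, a difference that was not tested. Of 60 effector genes 4 rose and 12 fell, 26.7% in all, again near the 26.8% of all genes. The genes that rose were ATG16L1, VPS16, MICALL2 and RABEP2, by 0.77, 0.69, 1.10 and 0.71 on the log2 scale (adjusted p = 0.00252, 0.0035, 0.00654 and 0.0126), named after their values were seen. Those that fell included the RAB11 effectors RAB11FIP5 (-0.76, adjusted p = 0.00131) and WDR44 (-1.10, adjusted p = 0.00189) and the RAB7 effectors OSBPL1A (-1.57, adjusted p = 0.0014) and VPS41 (-0.76, adjusted p = 0.00191), a subunit of the HOPS tether. Without the 3 cows 0 of 59 effectors rose and 7 fell, beside 4.2% higher and 8.04% lower among all genes, 12.2% in all.

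Some partners of RAB18, RAB7A and RAB13 moved as well. They are named here after their values were seen, so their choice is no support for a shared direction. Partners of the other RABs called, RAB1A and RAB1B among them, are not set out here. RAB3GAP1 and RAB3GAP2, both lower, form a complex that is also the exchange factor of RAB18. MON1A (-0.74, adjusted p = 0.016) and MON1B (-1.16, adjusted p = 0.02), which activate RAB7 together with CCZ1, were lower, whereas CCZ1 itself did not pass (-0.16, adjusted p = 0.355). TBC1D15 and TBC1D5 (-1.09, adjusted p = 0.00416), which end the active state of RAB7, were lower too, as were the RAB7 effectors OSBPL1A, VPS41 and FYCO1 (-0.63, adjusted p = 0.00826). The HOPS subunits did not move together, since VPS16 was higher (0.69, adjusted p = 0.0035) where VPS41 was lower, and VPS11, VPS18, VPS33A and VPS39 had log2 fold changes of -0.22, -0.06, -0.17 and 0.14 that did not pass (adjusted p = 0.156, 0.78, 0.255 and 0.35). RILP (-0.55, adjusted p = 0.0319) and PLEKHM1 (0.40, adjusted p = 0.0333), further RAB7 effectors, were under the fold minimum and leaned in opposite directions. MICALL2, a RAB13 effector at junctions, rose from 166 ± 28.9 to 386 ± 157 normalized counts (1.10, adjusted p = 0.00654). In the comparison without these 3 cows, MON1A, MON1B, FYCO1, VPS16 and MICALL2 did not pass (adjusted p = 0.189, 0.131, 0.0888, 0.0571 and 0.125), and TBC1D15, TBC1D5, OSBPL1A, VPS41, RAB3GAP1, RAB3GAP2 and DENND1C did.

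The ARF and SAR GTPases, a neighbouring family that forms vesicle coats, had 9 of 20 genes lower (45%) and 0 higher, beside 14.8% lower and 12% higher among all genes, with a median log2 fold change of -0.68 beside -0.18 for the RABs. ARF4, of the early secretory route, fell from 476.6 ± 80.9 to 126.7 ± 64.9 normalized counts (log2 fold change -2.03, adjusted p = 0.00068), and SAR1A, which starts COPII coats at the ER, from 113.9 ± 33.6 to 47.9 ± 14.2 (-1.23, adjusted p = 0.00332). ARL1, of the trans-Golgi, also fell (-0.96, adjusted p = 0.00291). Without P cows 01, 18 and 28, 6 of the 20 were lower and 0 higher, beside 8.04% lower and 4.2% higher among all genes. Whether the families differ was not tested. Of 7 RAB-like genes with other names, RABL6 was higher (0.77, adjusted p = 0.00178) and the nuclear transport GTPase RAN was lower (-1.12, adjusted p = 0.00817). They made up 28.6% of that list, near the 26.8% of all genes.

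**Figure D5:**
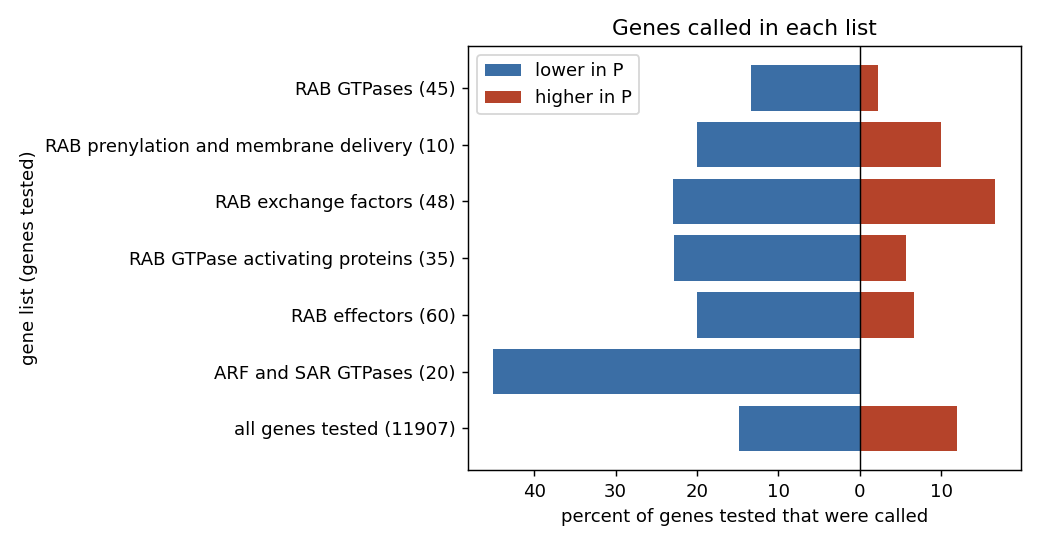
Percent of the genes tested that were called lower (blue, left) or higher (red, right) in P compared to NP cows, for each list (genes tested in brackets) and for all 11907 genes. The RAB bar, at 15.6% in all, is shorter than the bar of all genes at 26.8%, and the ARF and SAR bar has 9 of 20 genes on the left and 0 on the right.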

How the data were processed

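The deposited signal values are normalized counts. The authors trimmed reads with cutadapt, mapped them with STAR (2.4.2a in the submitters' processing notes) to ARS-UCD1.2, counted reads for each Ensembl gene by htseq-count and divided by DESeq2 size factors; the deposited values have 2 decimals. The deposited log2 fold changes and p-values of the authors' own comparison were not used. Whole reads were recovered from the smallest step of each library (at least 99.99% of values within 0.0051 of a whole read).

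For the main test, limma 3.58.1 (R 4.3.3, trend option) was run on log2(value + 1) over the genes reaching 30 in some cow. Each cow is 1 replicate. Alternatives were edgeR 4.0.16, DESeq2 1.42.0, TMM rescaling, pseudocounts of 5 and 0.5, other filters, no fold minimum, 1 surrogate variable (sva 3.50.0), the library total as covariate, and leaving out cows. The scripts were tested on simulated data. Named are the RABs and, of each list, up to 4 called genes with the smallest p, except where a gene is not reported here. GDI2 and the partners marked in the text were chosen after their values were seen. Members, lists and pairs were chosen with earlier results of these data known. RefSeq symbols come from a Bos indicus assembly of another build and were used for names only. No sequences were used here.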

Additional observations from a re-analysis of the deposited data

Results flagged for a closer look

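Among the 45 RABs tested, a single cow stood apart from the other 5 of its group in 5 of 90 groups of 6 values by Dixon's test at its 95% critical value, and chance alone gives about 1 in 20 such groups. P cow 19 had 102.1 normalized counts of RAB43, against 39.2 to 52.1 in the other P cows, and 70.04 of RAB17, against 10.46 to 32.65. P cow 01 had 1096 of RAB14, against 1361 to 1449. NP cow 22 had 75.5 of RAB23, against 25.7 to 36.1, and NP cow 05 had 1089 of RAB6A, against 854.5 to 913.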

How the results depend on the processing

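All 7 RABs called were called in the same direction in 21 of 23 alternatives, edgeR, DESeq2, TMM rescaling, 1 surrogate variable and the absence of any single cow among them, and the direction held in all 23. With single cows left out, 6 to 10 RABs were lower and 1 to 2 higher, 2493 to 3562 of all genes were called (1159 to 1649 higher, 1332 to 1924 lower), 3 to 5 pairs passed, RAB43 had log2 fold changes of -1.59 to -1.32, RAB7A of -1.41 to -1.17 and RAB23 of -1.09 to -0.68. Without P cow 19, 10 were lower (RAB10, RAB3A, RAB17 and RAB2B joined) and RAB37 was also higher. RAB26 was higher as well without NP cow 30 or P cow 01, and RAB24 without NP cow 32. With no fold minimum 3 RABs were higher and 9 lower, and 4119 of all genes were called (2012 higher, 2107 lower). Without P cows 01, 18 and 28, 0 RABs were higher, 0 pairs passed, and 1410 of all genes were called (484 higher, 926 lower) in place of 3197. With the library total as covariate 0 RABs were higher and 4 lower, and 510 genes were called (182 higher, 328 lower). Since the 3 libraries with the fewest reads all come from P cows, depth and pregnancy status cannot be fully told apart. Of 1195 single values, 16 lost and 21 gained a call and 0 called values reversed. No paired analysis was possible because P and NP cows share no number.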
